A study of Homo sapiens with 24 samples.

Results

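*IL11* and 7 related genes of the IL6 cytokine family were followed in 2 hepatocellular carcinoma (HCC) cell lines. The family members were the cytokine genes *IL11*, *IL6* and *LIF* and the receptor genes *IL6R*, *IL11RA*, *LIFR*, *OSMR* and *IL6ST*. They were chosen by name, starting from *IL11*, which had been picked for its fall with galunisertib alone in SNU-449 cells. The array held 18 probes for these 8 genes among 58201 probes and 31204 gene names. *IL6ST* had 7 probes, *IL6*, *LIF*, *IL6R* and *OSMR* had 2 each, and *IL11*, *IL11RA* and *LIFR* had 1 each. Of the 8 genes, 7 were well above background in at least 1 group of a comparison and were tested, while *LIFR* was not.

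RNA came from PLC/PRF/5 and SNU-449 cells, which are established HCC lines, so that each stands for 1 tumour only. After overnight serum starvation, which every group shared, each line was kept for 16 h as an untreated control, with 1 ng/mL recombinant human TGFβ1, with 10 µM galunisertib (LY2157299), or with TGFβ1 and galunisertib together. Each of the 8 groups had 3 independent cultures, and each of the 24 cultures had 1 one-colour array. No gene was deleted or introduced, and the study's methods describe both lines as free of known alterations in *SMAD2*, *SMAD3*, *SMAD4* and *CTNNB1*.

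Cytokines of the IL6 family signal through a shared receptor chain, gp130, the product of *IL6ST*. IL11 and IL6 first bind their own receptor, IL11RA or IL6R, whereas LIF and oncostatin M bind gp130 together with the LIF receptor or the oncostatin M receptor (OSMR). The assembled receptor activates JAK kinases and the transcription factor STAT3, and STAT3 induces *SOCS3*, whose product shuts the receptor down. In the liver this pathway drives the acute-phase response of hepatocytes, and *IL11* is a known target of TGFβ in fibroblasts and several tumour cells. Galunisertib inhibits the kinase of the type I TGFβ receptor.

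The promoters of 3 members are shown because these genes behaved differently in the arrays: *IL11* moved with TGFβ1 and galunisertib in SNU-449, *IL6R* moved in the opposite direction, and the 4 SNU-449 groups of *IL6* lay close together. Each sequence is the RefSeq stretch of 250 bases before the annotated start (GRCh38.p14), 5′ to 3′ on the strand of the gene, with matches to the motifs searched in capitals. Of the 8 members, 7 had such a stretch, and *LIF* was not among them.
IL11, chr19:55370464-55370713, minus strand: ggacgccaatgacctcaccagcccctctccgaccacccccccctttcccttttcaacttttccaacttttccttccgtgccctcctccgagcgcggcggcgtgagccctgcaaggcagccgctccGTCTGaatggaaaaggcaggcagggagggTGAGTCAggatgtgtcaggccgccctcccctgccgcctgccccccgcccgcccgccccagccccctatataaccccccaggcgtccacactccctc
IL6, chr7:22726950-22727199, plus strand: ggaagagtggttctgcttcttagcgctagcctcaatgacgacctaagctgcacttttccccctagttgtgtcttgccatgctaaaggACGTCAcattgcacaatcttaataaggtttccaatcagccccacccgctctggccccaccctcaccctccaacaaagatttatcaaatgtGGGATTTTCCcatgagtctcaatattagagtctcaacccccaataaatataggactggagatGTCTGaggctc
IL6R, chr1:154405093-154405342, plus strand: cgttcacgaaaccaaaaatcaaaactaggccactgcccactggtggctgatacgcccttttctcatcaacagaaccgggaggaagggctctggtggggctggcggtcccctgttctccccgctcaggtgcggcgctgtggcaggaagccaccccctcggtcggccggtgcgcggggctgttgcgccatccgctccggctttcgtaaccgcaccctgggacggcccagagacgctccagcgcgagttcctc

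Both strands were searched for AP-1 (TGANTCA), the core of the cAMP response element (TGACGT), the SMAD-binding element (CAGAC), NF-κB and STAT (TTCNNNGAA). The *IL11* stretch held an AP-1 match starting 96 bases before the start and a SMAD match on the other strand at 125 bases. The *IL6* stretch held the response-element core on the other strand at 163 bases, NF-κB at 73 bases and SMAD on the other strand at 11 bases. None of the 5 motifs matched in the *IL6R* stretch, which says only that these letters are not in this window. Stretches not printed held SMAD matches in *IL11RA* and *LIFR*, NF-κB in *IL6ST* and *IL11RA*, STAT in *LIFR*, and none in *OSMR*. Among 35116 RefSeq stretches of the same length, 6.57% held AP-1, 7.10% the response-element core, 38.0% SMAD, 9.96% NF-κB and 6.57% STAT. GC content was 67.2% for *IL11*, 47.6% for *IL6* and 65.2% for *IL6R*. A match is a description of the sequence and not a measured binding site.

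Levels are given as log2 of a probe's processed signal over the 75th percentile of its array, so 0 is that percentile and a step of 1 is a doubling. Different probes cannot be compared in level. A gene was called at limits the study used for some of its gene lists, a fold change above 2 with an unadjusted P below 0.001 in limma, and p-values adjusted by Benjamini-Hochberg over all genes tested stand beside. The 75th percentile lay between 145 and 262 intensity units, 41.6% to 49.6% of probes were well above background on an array, and no member spot was set aside as an outlier. The 6 TGFβ-responsive genes used as a check of the labels were all called lower with galunisertib added to TGFβ1 in SNU-449, and all 4 that could be tested in PLC/PRF/5 were lower at an adjusted p below 0.05. All 8 hepatocyte markers were detected on every PLC/PRF/5 array, against 4 of 8 in SNU-449, where *APOA2*, *APOB* and *TF* were on no array. In bulk RNA, fewer cells of a type and less RNA per cell cannot be told apart. Arrays without TGFβ1 sat in the first row of each slide and those with TGFβ1 in the second, so the row and the TGFβ1 treatment cannot be told apart. Along the rows, each line with and without galunisertib kept its own position on all 3 slides, so position cannot be told apart from line or galunisertib either.

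*IL11* encodes a secreted cytokine with roles in platelet formation and tissue fibrosis. In SNU-449 the level of *IL11* was 5.24, 5.32 and 5.50 in the 3 cultures with TGFβ1 and 2.36, 1.81 and 1.27 in those with TGFβ1 and galunisertib. The highest culture with both agents lay far below the lowest with TGFβ1 alone. Adding galunisertib to TGFβ1 lowered *IL11* by a log2 change of -3.54 ± 0.448 (SE), or 11.6-fold, with an adjusted p of 0.000415 in limma. No array of this comparison had served to pick *IL11*. The change lay between -3.87 and -3.19 over all 16 alternative settings. Without replicate 3 it was -3.19 with an adjusted p of 0.0393, and the unadjusted P of 0.0021 no longer met the limit for a call.

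The untreated SNU-449 cultures had *IL11* at 2.69, 2.77 and 2.96, below every culture with TGFβ1. TGFβ1 raised *IL11* by 2.55 ± 0.448 on the log2 scale, or 5.84-fold, with an adjusted p of 0.00491 in limma, and the gene was called. Leaving out replicate 2 or replicate 3 kept the change at 2.55 but gave adjusted p-values of 0.0746 and 0.103, and the call was lost. The 12 SNU-449 arrays share an estimate of the spread, to which the galunisertib cultures contributed an SD of 1.08, against 0.14 in the controls and 0.13 with TGFβ1. On the control and TGFβ1 arrays alone, the adjusted p by a plain two-sample test was 0.00451. This comparison used the control arrays from which *IL11* was picked.

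With galunisertib alone, SNU-449 cultures had *IL11* at -1.02, -3.09 and -2.59, which correspond to processed signals of 108, 22.9 and 33.1 intensity units. These were the lowest levels of *IL11* in any group, and they were well above background on all 3 arrays. The mean was 33.0-fold below the untreated controls. This is the comparison that *IL11* was picked for, so the value describes the choice and carries no test. With normexp background correction the log2 difference of -5.04 became -3.59. Without TGFβ1 and with galunisertib the 3 cultures spread over more than 2 log2 units, the widest range of any *IL11* group.

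The response of *IL11* was smaller in PLC/PRF/5. Its level was -0.95, -0.58 and -0.50 in untreated cultures, -0.01, 0.04 and -0.06 with TGFβ1, -0.49, -0.55 and -0.35 with galunisertib, and -0.35, -0.18 and -0.22 with both agents. All 3 TGFβ1 cultures lay above every other PLC/PRF/5 culture, while the galunisertib and control cultures overlapped. TGFβ1 raised *IL11* by 0.67 ± 0.113 (adjusted p = 0.00361, limma), short of the fold for a call, and without replicate 2 the adjusted p was 0.0832. With median scaling the adjusted p was 0.0639, and by the plain two-sample test it was 0.0664. The change with galunisertib added to TGFβ1 was -0.24 ± 0.113 (adjusted p = 0.118), and that with galunisertib alone was 0.22 (adjusted p = 0.286).

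SNU-449 had more *IL11* than PLC/PRF/5 in controls, with TGFβ1 and with both agents, and less with galunisertib alone. That SNU-449 group is the one *IL11* was picked for being low in, so the turn in order describes the choice. Ordered by mean, the levels of *IL11* were 5.35 in SNU-449 with TGFβ1, 2.81 in SNU-449 controls, 1.82 in SNU-449 with both agents, -0.01, -0.25, -0.46 and -0.68 in PLC/PRF/5 with TGFβ1, both agents, galunisertib and neither, and -2.24 in SNU-449 with galunisertib. Neighbours in this order overlapped only between PLC/PRF/5 with both agents and with galunisertib, and between PLC/PRF/5 with galunisertib and its controls. Under TGFβ1, PLC/PRF/5 had 41.2-fold less *IL11* than SNU-449 (log2 difference -5.36 ± 0.341, adjusted p = 2.73e-11). In untreated cells the log2 difference was -3.48 ± 0.341 (adjusted p = 2.08e-08), on control arrays shared with the choice of *IL11*.

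The effect of galunisertib added to TGFβ1 on *IL11* differed between the lines by -3.30 ± 0.482 on the log2 scale, SNU-449 minus PLC/PRF/5 (adjusted p = 5.55e-05, limma over all 24 arrays). Without replicate 3 the difference was -2.91 (adjusted p = 0.0179), and the unadjusted P of 0.0016 no longer met the limit for a call. The effect of TGFβ1 differed by 1.88 ± 0.482 (adjusted p = 0.0174), on control arrays shared with the choice of *IL11*. It was no call at the limits used and had an adjusted p of 0.17 without replicate 2 and 0.239 without replicate 3. *IL11* was read from 1 spot near the edge of the array, in row 377 of 384.

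*LIF* encodes leukemia inhibitory factor, which acts through gp130 and LIFR. In SNU-449 its level was 4.42, 4.38 and 4.44 in controls, 4.93, 4.78 and 4.68 with TGFβ1, 3.59, 3.89 and 3.70 with galunisertib, and 4.18, 4.29 and 4.24 with both agents. The 4 groups did not overlap and had the same order as for *IL11*. With galunisertib added to TGFβ1, *LIF* fell by 0.56 ± 0.097 on the log2 scale (adjusted p = 0.00298, limma), a fold below 2. Without replicate 3 the change was -0.62 with an adjusted p of 0.0581.

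TGFβ1 changed *LIF* in SNU-449 by 0.38 ± 0.097 (adjusted p = 0.0314), but with the replicate number as a block the adjusted p was 0.0548, and without any of the 3 replicates in turn it was 0.165 to 0.199. The difference between galunisertib alone and control, whose control arrays also served to pick *IL11*, was -0.69 and is given without a test.

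*LIF* moved the other way with galunisertib in PLC/PRF/5. Its level was -1.16, -1.48 and -1.18 in controls, -1.78, -1.32 and -1.76 with TGFβ1, -0.05, -0.14 and -0.15 with galunisertib, and -0.94, -0.45 and -0.67 with both agents. Cultures with galunisertib lay above all cultures without it, and controls overlapped with TGFβ1. Galunisertib alone raised *LIF* by 1.16 ± 0.153, or 2.24-fold, and the gene was called (adjusted p = 0.00342), although without replicate 1 the adjusted p was 0.0585 and without replicate 3 it was 0.131. Added to TGFβ1, galunisertib raised it by 0.93 ± 0.153 (adjusted p = 0.00092), a fold just under 2. The change with TGFβ1 alone was -0.35 (adjusted p = 0.171).

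The difference between the lines in the effect of galunisertib added to TGFβ1 on *LIF* was -1.49 ± 0.184 (adjusted p = 8.31e-06, limma), and it was called. It ran from -1.83 to -0.82 over 15 alternative settings, the latter under 2-fold. Under TGFβ1 *LIF* in PLC/PRF/5 was 85.5-fold below SNU-449 (adjusted p = 2.09e-19), and in untreated cells 51.5-fold lower (log2 difference -5.69 ± 0.13, adjusted p = 1.53e-18).

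*IL6*, the founding cytokine of the family and the main inducer of the acute-phase response, was well above background on none of the 12 PLC/PRF/5 arrays. In SNU-449 its level was -1.18, -1.61 and -1.31 in controls, -1.45, -1.38 and -1.51 with TGFβ1, -0.49, -0.88 and -1.43 with galunisertib, and -1.27, -1.29 and -1.09 with both agents. The groups overlapped, apart from the TGFβ1 cultures and those with both agents. The change with galunisertib added to TGFβ1 was 0.23 ± 0.204 (adjusted p = 0.518), and that with TGFβ1 was -0.08 (adjusted p = 0.874). Because *IL6* in PLC/PRF/5 has only an upper bound, it was at least 5.84-fold below SNU-449 in untreated cells and at least 6.44-fold lower under TGFβ1. The bound sets the weakest signal called well above background on each array against the SNU-449 mean. With normexp background correction, which adds an offset to every signal, the fitted log2 differences were smaller, -0.97 untreated and -1.17 under TGFβ1.

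**Figure D1:**
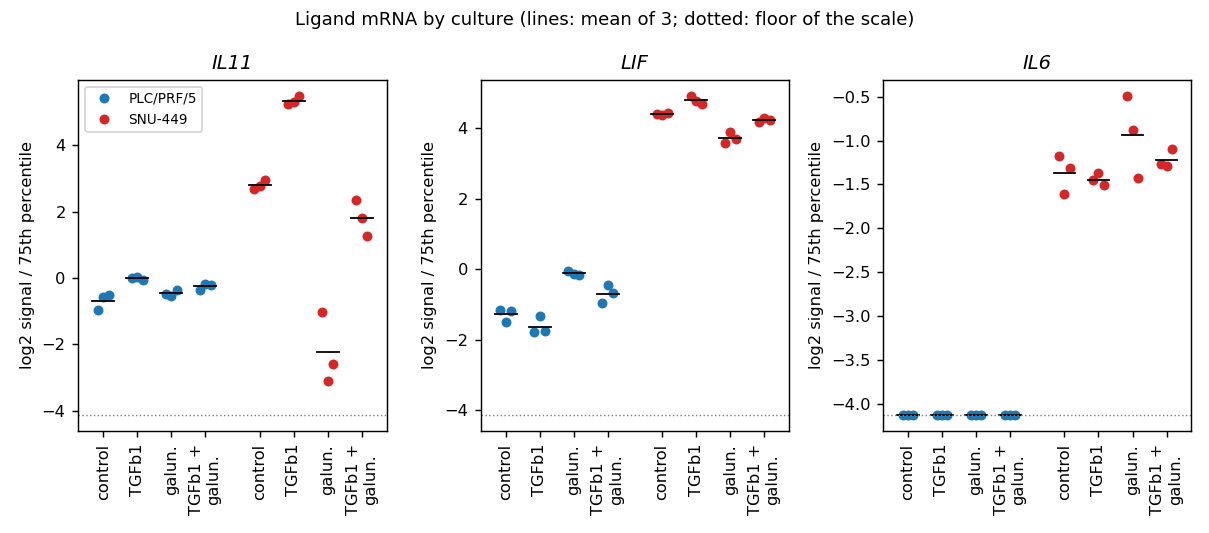
Levels of *IL11*, *LIF* and *IL6* by line and treatment, as log2 signal over the 75th percentile of the array, with a point for each of the 3 cultures of a group and a bar at the mean. In SNU-449 *IL11* runs from a mean of 5.35 with TGFβ1 to -2.24 with galunisertib, *LIF* is higher in every SNU-449 culture than in any PLC/PRF/5 culture, and *IL6* in PLC/PRF/5 lies at the floor of -4.13.

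*IL6R* encodes the specific receptor for IL6, found on hepatocytes and some leukocytes. In SNU-449 its level was -2.58, -2.87 and -2.60 with TGFβ1 and -1.61, -1.67 and -1.54 with both agents. Every culture with both agents lay above every culture with TGFβ1 alone. With galunisertib added to TGFβ1, *IL6R* rose by 1.07 ± 0.118, or 2.10-fold (adjusted p = 0.000184, limma), and it was called. The adjusted p passed in all 16 alternative settings, over which the change was 0.61 to 1.17, and the fold was under 2 with median scaling, no scaling, quantile normalization and normexp background correction.

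Untreated SNU-449 cultures had *IL6R* at -1.72, -2.0 and -2.06 and those with galunisertib at -1.48, -1.37 and -1.59. With TGFβ1, *IL6R* fell by 0.76 ± 0.118 on the log2 scale (adjusted p = 0.00259), a fold under 2. The adjusted p was 0.0613 without replicate 2, 0.12 with median scaling and 0.0569 by the plain two-sample test. The TGFβ1 cultures lay below all 9 others of the line. The difference between galunisertib alone and control, 0.45, is given without a test.

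*IL6R* in PLC/PRF/5 was 1.39, 1.47 and 1.40 in controls, 1.20, 0.76 and 0.92 with TGFβ1, 1.46, 1.40 and 1.27 with galunisertib, and 1.33, 1.21 and 1.37 with both agents. Here too the TGFβ1 cultures were the lowest of the line. TGFβ1 changed *IL6R* by -0.46 ± 0.108 (adjusted p = 0.0184), which did not hold without replicate 2 (adjusted p = 0.244) or replicate 3 (adjusted p = 0.18). Its adjusted p passed in 11 of 16 alternative settings. Added to TGFβ1, galunisertib changed *IL6R* by 0.34 ± 0.108 (adjusted p = 0.0279), with an adjusted p of 0.167 without replicate 2 and 0.211 without replicate 3. This change passed in 7 of 16 alternative settings. PLC/PRF/5 had 12.5-fold more *IL6R* than SNU-449 under TGFβ1 (adjusted p = 2.34e-16) and 10.2-fold higher in untreated cells (adjusted p = 9.68e-16), the reverse of *IL11* and *LIF*.

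*IL11RA* encodes the receptor that binds IL11 before gp130 joins. The 2 lines were close in this receptor, with levels of 1.16, 1.17 and 1.13 in PLC/PRF/5 controls and 1.17, 1.39 and 1.39 in SNU-449 controls, and these overlapped. With treatment it was, in PLC/PRF/5, 1.36, 1.16 and 1.36 with TGFβ1, 1.02, 0.86 and 0.89 with galunisertib, and 0.35, 0.67 and 0.84 with both agents. The cultures with both agents lay below all others of the line. With galunisertib added to TGFβ1, *IL11RA* there fell by 0.67 ± 0.116 on the log2 scale (adjusted p = 0.0012), a fold under 2. The adjusted p was 0.0727 with median scaling and 0.106 without scaling.

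In SNU-449 *IL11RA* stayed between 1.17 and 1.66 in all 12 cultures. Its change with galunisertib added to TGFβ1 was 0.13 (adjusted p = 0.427), and the difference between the lines in that effect was 0.80 (adjusted p = 0.000619). With median scaling this difference was 0.47 (adjusted p = 0.185) and without scaling 0.63 (adjusted p = 0.138). *IL11RA* also did not pass between the lines in untreated cells, where the log2 difference was -0.17 (adjusted p = 0.174), or under TGFβ1, where it was -0.07 (adjusted p = 0.585).

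*OSMR* encodes the receptor chain that pairs with gp130 to bind oncostatin M. In PLC/PRF/5 its level was 1.07, 1.07 and 1.25 in controls, 0.72, 0.81 and 0.85 with TGFβ1, 1.85, 1.58 and 1.82 with galunisertib, and 1.99, 1.63 and 1.68 with both agents. Cultures with galunisertib did not overlap with those without it. Galunisertib added to TGFβ1 raised *OSMR* by 0.98 ± 0.112 (adjusted p = 0.000107), just under the fold for a call, with a range of 0.80 to 1.15 over the 16 alternative settings. Galunisertib alone raised it by 0.62 ± 0.112 (adjusted p = 0.0127), with adjusted p-values of 0.0934 to 0.17 when each replicate was left out in turn. The change with TGFβ1 was -0.34 (adjusted p = 0.0699).

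In SNU-449 *OSMR* was 0.35, 0.41 and 0.34 in controls, 0.47, 0.41 and 0.68 with TGFβ1, 0.72, 0.79 and 0.90 with galunisertib, and 0.54, 0.75 and 0.76 with both agents, a range of less than 1 log2 unit. The change with galunisertib added to TGFβ1 was 0.16 (adjusted p = 0.31). The effect differed between the lines by -0.81 (adjusted p = 0.00046), larger in PLC/PRF/5.

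*IL6ST*, the gp130 gene, showed little variation on the probe with the highest signal. Its level ran from 2.09 to 2.47 over the 12 PLC/PRF/5 cultures and from 1.78 to 2.43 over the 12 SNU-449 cultures. Every group overlapped with its neighbour in order of the mean. The change with galunisertib added to TGFβ1 was 0.39 ± 0.139 in SNU-449 (adjusted p = 0.0858), where the cultures had 1.78, 2.08 and 2.09 with TGFβ1 and 2.36, 2.32 and 2.43 with both agents. The PLC/PRF/5 value was -0.16 (adjusted p = 0.217). The difference between the lines in that effect was 0.55 (adjusted p = 0.0199), and its adjusted p was 0.242 without replicate 1 and 0.0971 without replicate 3.

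*LIFR*, which encodes the receptor chain for LIF, was well above background on 1 PLC/PRF/5 array, a control, and on 2 SNU-449 arrays, both with TGFβ1. No level or change is given for it.

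**Figure D2:**
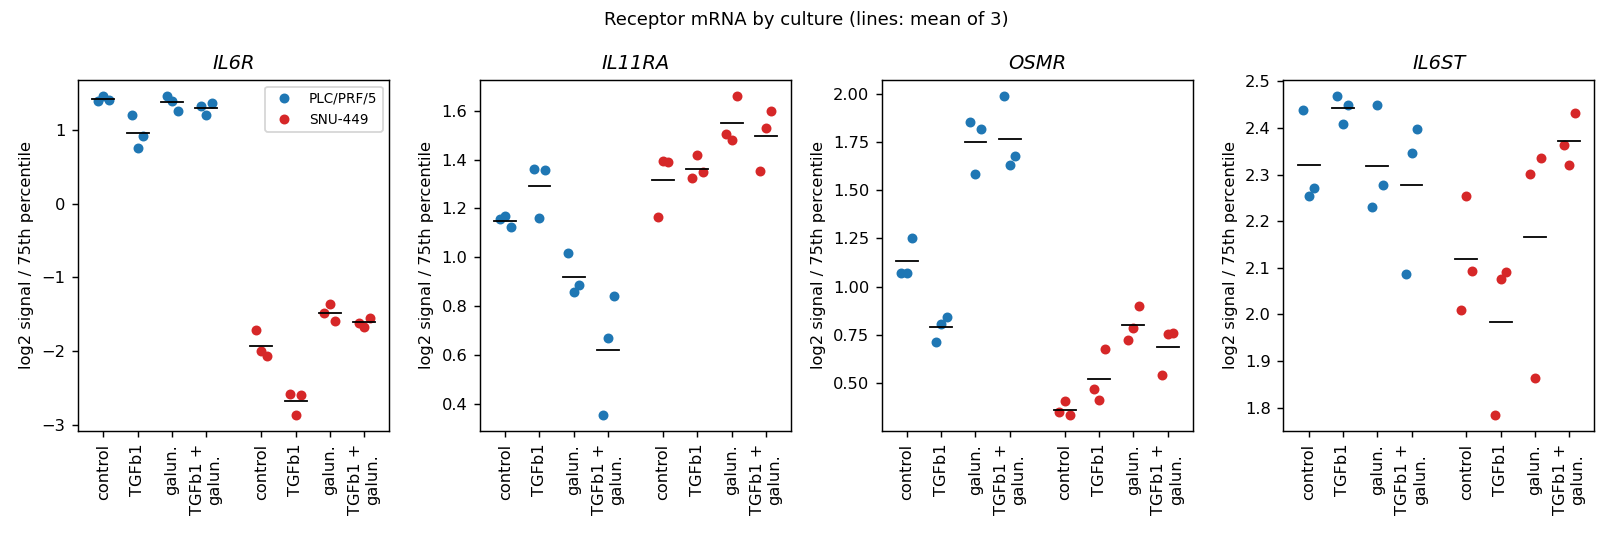
Levels of *IL6R*, *IL11RA*, *OSMR* and *IL6ST* by line and treatment, as log2 signal over the 75th percentile of the array, with a point for each of the 3 cultures of a group and a bar at the mean. *IL6R* is lowest with TGFβ1 in both lines and 12.5-fold higher in PLC/PRF/5 under TGFβ1, and *OSMR* is highest in the PLC/PRF/5 cultures that had galunisertib.

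Counted over the family, galunisertib added to TGFβ1 in SNU-449 gave 2 calls among 7 members tested, *IL11* lower and *IL6R* higher, where 3.79% of 16101 genes were called. At an adjusted p below 0.05, 3 of 7 passed, against 16.9% of all genes. The median log2 change was 0.16 over the members and 0.01 over all genes. Without replicate 3 only 1 member was called. The same treatment in PLC/PRF/5 gave 0 calls among 6 members with limma and 0 with the plain two-sample test, where 3.12% of 16684 genes were called by limma. There 4 of 6 had an unadjusted P below 0.05, as had at least 39.1% of all genes. The same number passed the adjusted limit, against 39.1%.

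With TGFβ1 alone, 1 of 7 members was called in SNU-449 (*IL11*), where 2.31% of all genes were called, and 3 of 7 passed the adjusted limit, against 10.3%. Without replicate 2 or 3, 0 members were called there. TGFβ1 in PLC/PRF/5 gave 0 calls with limma or the plain two-sample test among 6 members, beside 1.11% of all genes. In limma 2 passed the adjusted limit, against 13.6%. An unadjusted P below 0.05 was met by 4 members and by at least 13.6% of all genes. Galunisertib alone in PLC/PRF/5 gave 1 call of 6 (*LIF*), beside 0.348% of all genes, and 2 past the adjusted limit, beside 5.39%; without replicate 3 the call was lost. No count is given for galunisertib alone in SNU-449, because *IL11* was picked for its fall in that comparison.

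Between the lines, 6 members were measured in both. *IL6* is left out here, because it entered the fit through SNU-449 alone and has only a bound in PLC/PRF/5. In untreated cells *IL11*, *LIF* and *IL6R* were called, beside 34.3% of all genes. These and *OSMR* passed the adjusted limit, beside 68.5%. Under TGFβ1 *IL11*, *LIF* and *IL6R* were called, beside 36.3%, and these, *OSMR* and *IL6ST* passed the adjusted limit, beside 69.3%. In each case *IL11* and *LIF* were lower in PLC/PRF/5 and *IL6R* was higher. The untreated value of *IL11* used control arrays shared with its choice. The difference between the lines in the effect of galunisertib added to TGFβ1 was called for 2 of these 6 members, *IL11* and *LIF*, beside 6.14% of all genes. Without replicate 3 it was called for 1, *LIF*. At the adjusted limit all 6 passed it, beside 29.1%. Over 15 alternative settings *IL6ST* passed that limit in 10, *IL6R* in 12 and *IL11RA* in 13. For the effect of TGFβ1 alone, limma called 0 of the 6 differences between the lines, beside 2.29% of all genes. There 3 had an unadjusted P below 0.05, as had at least 8.62% of all genes, and 3 passed the adjusted limit, beside 8.62%. Without replicate 1, 1 difference was called. Comparisons within a line share control or TGFβ1 arrays, so their counts are not independent.

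**Figure D3:**
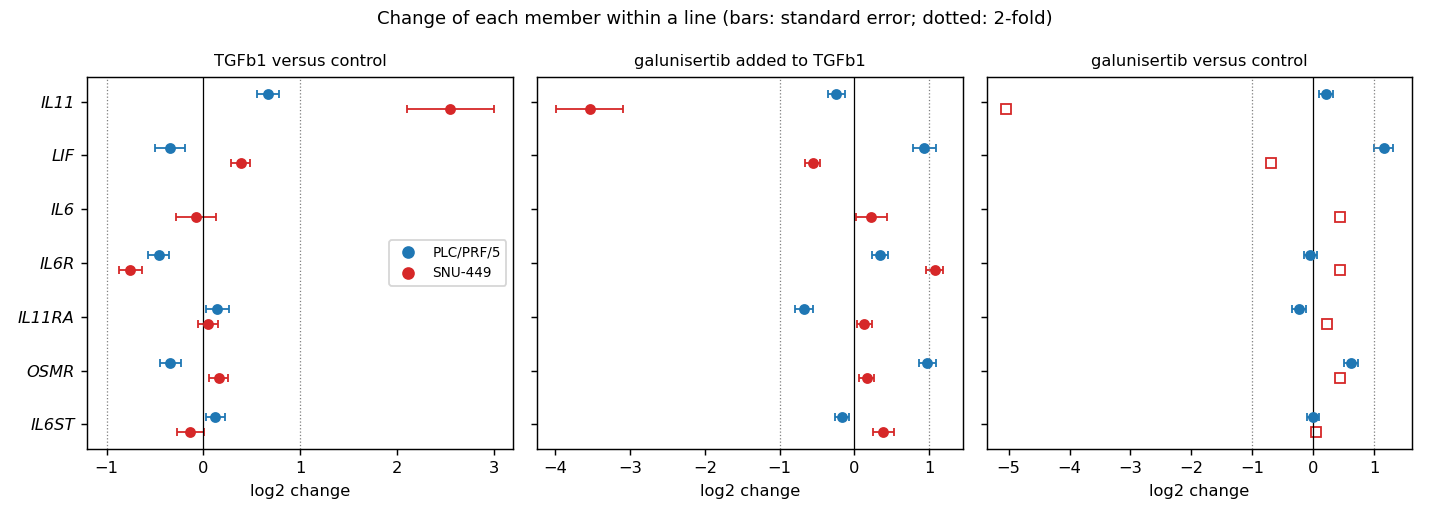
Log2 change of each member tested, by comparison and line, with bars for the standard error in limma and open squares without an error for galunisertib against control in SNU-449, the comparison *IL11* was picked from. Galunisertib added to TGFβ1 moved *IL11* by -3.54 and -0.24, and *LIF* by -0.56 and 0.93, in SNU-449 and PLC/PRF/5 respectively.

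Second probes gave a further reading for 4 of the genes, while that of *IL6* was well above background on none of the 24 arrays. For *LIF*, the dimmer probe was well above background on all 12 SNU-449 arrays and on 2 PLC/PRF/5 arrays. In SNU-449 it read -1.61, -1.83 and -1.83 with TGFβ1 and -1.84, -1.78 and -2.07 with both agents, which overlap, and its change was -0.14 ± 0.173 (adjusted p = 0.67, over all probes). The fall of *LIF* with galunisertib added to TGFβ1 was therefore read by 1 of its 2 probes, and over the mean of both probes the change was -0.35 (adjusted p = 0.0858). The dimmer probe also placed *LIF* at least 3.97-fold lower in untreated PLC/PRF/5 than in untreated SNU-449 and at least 5.19-fold lower under TGFβ1.

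For *IL6R*, the second probe was well above background on 9 of 12 SNU-449 arrays. It read -3.75, -3.87 and -4.13 with TGFβ1, of which only the culture at -3.75 was above background, and -2.52, -2.80 and -2.65 with both agents. The groups did not overlap, but with 2 of 3 cultures of a group not above background no size is given. The change of this probe in PLC/PRF/5 with galunisertib added to TGFβ1 was -0.10 (adjusted p = 0.516), where the first probe gave 0.34. For *OSMR* in PLC/PRF/5, the second probe read -1.64, -1.48 and -2.0 with TGFβ1 and -0.92, -0.97 and -0.75 with both agents, without overlap, a change of 0.82 ± 0.133 (adjusted p = 0.00107).

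The 7 *IL6ST* probes did not give the same answer in SNU-449. With galunisertib added to TGFβ1, 2 rose: one read -0.73, -0.58 and -0.62 with TGFβ1 and 0.31, 0.30 and 0.25 with both agents, a change of 0.93 ± 0.090 (adjusted p = 0.000103), and another changed by 0.74 ± 0.208 (adjusted p = 0.0386). The other 5 changed by 0.17 to 0.41 and did not pass, the brightest among them. In PLC/PRF/5 the 7 probes changed by -0.25 to -0.02, and 1 passed, at -0.25 (adjusted p = 0.0208). Which transcripts of *IL6ST* each probe reads was not tested.

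**Figure D4:**
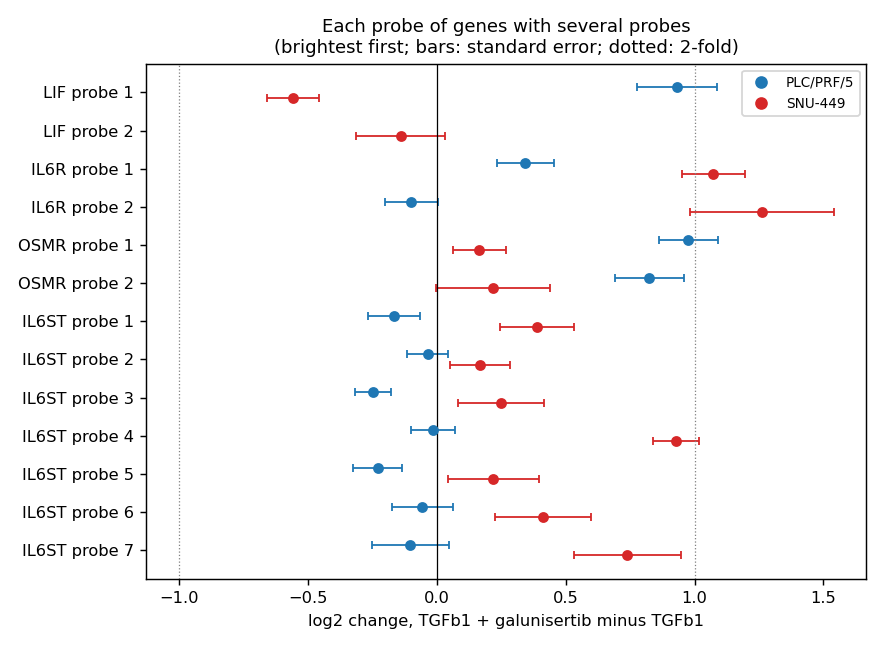
Log2 change with galunisertib added to TGFβ1 of each probe tested of the 4 members that had several, for both lines, with bars for the standard error. The *IL6ST* probes in SNU-449 spread from 0.17 to 0.93 and the *LIF* probes there lie at -0.56 and -0.14.

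The other genes of the pathway were listed by role, whether or not they moved. Among the other cytokines of the family, 4 of 8 could be tested in SNU-449 and 5 of 8 in PLC/PRF/5. With galunisertib added to TGFβ1 in SNU-449, *CLCF1*, which encodes cardiotrophin-like cytokine factor, changed by 0.28 ± 0.09 (adjusted p = 0.0625), and *EBI3*, a subunit gene of IL27, by 0.13 ± 0.08 (adjusted p = 0.346), so neither passed.

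The called cytokine in PLC/PRF/5 was *IL27*, which encodes a subunit of the heterodimer IL27. It read -0.49, -1.11 and -0.97 with TGFβ1 and -3.60, -2.57 and -2.90 with both agents, without overlap. Its level fell by 2.16 ± 0.286 on the log2 scale (adjusted p = 0.000261). *EBI3*, which encodes the other subunit, changed by -0.67 ± 0.10 (adjusted p = 0.000625) and by 0.57 ± 0.10 with TGFβ1 (adjusted p = 0.00503), both under the fold for a call. *CNTF*, encoding ciliary neurotrophic factor, rose by 0.49 with galunisertib added to TGFβ1 (adjusted p = 0.00519). The median change over the 5 was -0.31, against 0.06 over all genes. Of the 3 other receptors, 1 could be tested in each line and it was not called.

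Of 9 signal transducers, 8 were tested in each line and none was called by limma with either treatment. With galunisertib added to TGFβ1, 2 in SNU-449 and 5 in PLC/PRF/5 had an unadjusted P below 0.05. At least 16.9% and 39.1% of all genes were below that P. The largest changes were in PLC/PRF/5 with galunisertib added to TGFβ1. *JAK1*, a kinase bound to gp130, changed by -0.88 ± 0.14 (adjusted p = 0.000705), and the adaptor *GAB1* by -0.85 ± 0.17 (adjusted p = 0.0029), and these 2 fell. The phosphatase gene *PTPN11* rose by 0.54 ± 0.11 (adjusted p = 0.00283). In SNU-449 *GAB1* rose by 0.73 ± 0.18 (adjusted p = 0.0169), *PTPN11* changed by -0.47 ± 0.09 (adjusted p = 0.00657), and *JAK1* changed by 0.00 (adjusted p = 0.999). For *STAT3* itself, the change was -0.03 in SNU-449 (adjusted p = 0.876) and 0.06 in PLC/PRF/5 (adjusted p = 0.727). At an adjusted p below 0.05, SNU-449 had 1 transducer higher and 1 lower and PLC/PRF/5 had 1 higher and 3 lower, with medians of 0.01 and -0.09, where 16.9% and 39.1% of all genes passed.

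Among 6 inhibitors of the pathway, *SOCS3* was called in PLC/PRF/5. It read -1.46, -0.96 and -1.40 with TGFβ1 and -0.25, -0.21 and -0.34 with both agents, so that the groups were apart. Galunisertib added to TGFβ1 raised *SOCS3* by 1.01 ± 0.14 in PLC/PRF/5 (adjusted p = 0.00042) and by 0.68 ± 0.09 in SNU-449 (adjusted p = 0.000547), the latter under the fold for a call. *SOCS1* in PLC/PRF/5 changed in the other direction, by -1.27 ± 0.32 (adjusted p = 0.00966), without meeting the P limit of a call. At an adjusted p below 0.05, 2 of 6 inhibitors were higher and none lower in SNU-449, while PLC/PRF/5 had 3 of 5 higher and 2 lower, beside 16.9% and 39.1% of all genes. The medians were 0.13 and 0.32.

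The 18 genes listed as targets of gp130 and STAT3 include acute-phase proteins and immediate early genes. With galunisertib added to TGFβ1, 2 of 13 tested in SNU-449 were higher and 3 lower at an adjusted p below 0.05, and in PLC/PRF/5 5 of 15 were higher and 3 lower, beside 16.9% and 39.1% of all genes in either direction. The medians were -0.10 and 0.12. In SNU-449 1 was called lower and 1 higher, beside 3.79% of all genes. In PLC/PRF/5 0 were called by limma, beside 3.12%. There 9 of 15 were below an unadjusted P of 0.05, a limit that at least 39.1% of all genes met.

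*JUNB*, an AP-1 subunit that is also a direct TGFβ target, was the one called lower. It read 0.14, 0.30 and 0.04 in SNU-449 with TGFβ1 and -2.07, -1.70 and -2.46 with both agents. Galunisertib added to TGFβ1 changed *JUNB* by -2.24 (adjusted p = 0.000207), and TGFβ1 raised it by 1.54 ± 0.252 (adjusted p = 0.00335). *FGL1*, which encodes a hepatocyte-secreted protein of the fibrinogen family, read 1.27, 1.35 and 1.37 with TGFβ1 and 2.39, 2.46 and 2.43 with both agents in SNU-449, a rise of 1.10 ± 0.144 (adjusted p = 0.000527). In PLC/PRF/5 *SERPINA3*, an acute-phase protease inhibitor, was called with TGFβ1, from -0.93, -0.87 and -0.93 in controls to 0.21, 0.32 and 0.25 (change 1.17 ± 0.083, adjusted p = 1.37e-05).

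**Figure D5:**
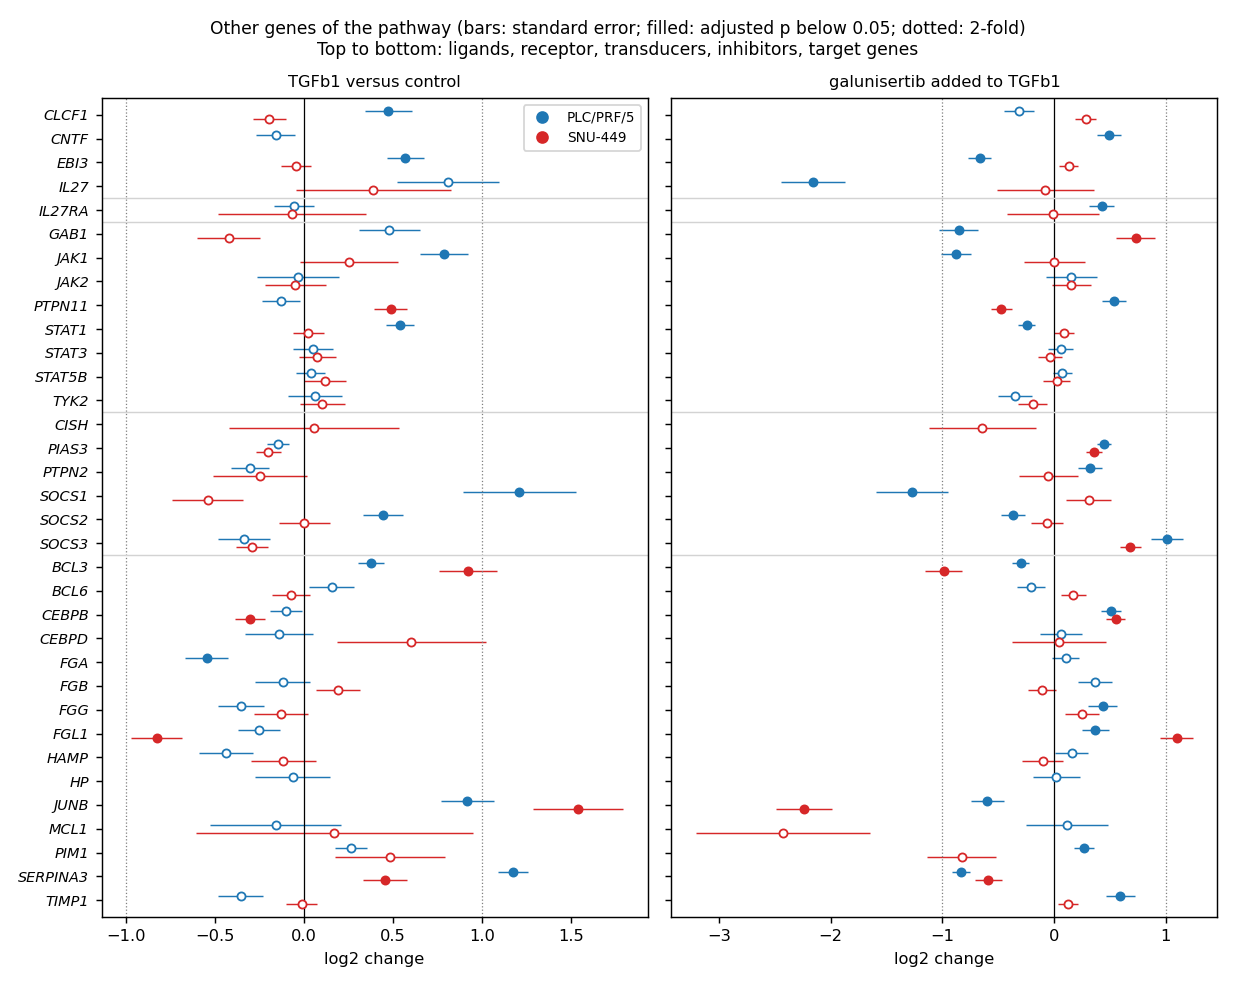
Log2 change with TGFβ1 alone and with galunisertib added to TGFβ1 for the tested genes of the pathway lists that are reported here, by role, in both lines, with bars for the standard error and filled points for an adjusted p below 0.05. *JUNB* at -2.24 is the lowest filled point in SNU-449, *MCL1* at -2.43 with its wide bar is open, *IL27* at -2.16 is lowest in PLC/PRF/5, and the signal transducers lie within 1 log2 unit of 0 in both lines.

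Markers of other cells were read beside these results. Leukocyte markers summed to 0.311 to 0.538 of the 75th percentile in SNU-449 and 0.391 to 0.583 in PLC/PRF/5, and the endothelial markers to 0.177 to 0.328 and 0.210 to 0.397. *CD14* and *VWF* were on all 12 arrays of both lines and *PTPRC* on all 12 of PLC/PRF/5, while *PECAM1* was on no array of either line and *CD3E* on none of SNU-449. *CD14*, a monocyte marker, rose by 1.04 ± 0.16 with galunisertib added to TGFβ1 in SNU-449 (adjusted p = 0.00146) and was called, 1 of 2 leukocyte markers tested. The other, *PTPRC*, changed by 0.12 (adjusted p = 0.873). The change of *CD14* differed between the lines by 1.14 (adjusted p = 0.000413). The part of these markers in the results was not tested. The summed level of the 5 fibroblast or stellate markers in SNU-449 followed the order of *IL11*. It was 116 to 151 times the 75th percentile in controls, 234 to 258 with TGFβ1, 38.4 to 54.0 with galunisertib and 65.6 to 109 with both agents. *COL1A1* changed by -1.90 with galunisertib added to TGFβ1 (adjusted p = 0.000485) and was the 1 of 4 tested markers past the adjusted limit. In limma 2 of the 4 had an unadjusted P below 0.05, and their median change was -0.57 over all 4. Of all genes, 16.9% passed the adjusted limit and at least that share was below the unadjusted P. *DCN* was on no array. Their part in the *IL11* result was not tested.

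The genes whose pattern was most like that of *IL11* were ranked by Pearson correlation over the 12 SNU-449 arrays among 16101 genes. Among the 5 highest were *LYPD1* (r = 0.985), *SMAD7* (r = 0.983), which encodes the inhibitory SMAD induced by TGFβ, *KLF7* (r = 0.979) and *TUBA4A* (r = 0.979). The 5 lowest were *UBN1* (r = -0.975), *HKDC1* (r = -0.975), *PLAU* (r = -0.974), *MRPL38* (r = -0.973) and *FLVCR1-DT* (r = -0.971). Within the family r was 0.93 for *LIF*, -0.26 for *IL6ST*, -0.59 for *IL6*, -0.62 for *IL11RA*, -0.67 for *OSMR* and -0.85 for *IL6R*. These 12 arrays share 4 treatments and 3 slides, so the correlations only describe them. They include the control and galunisertib arrays from which *IL11* was picked, so likeness to *IL11* in part restates that choice.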

How the data were processed

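RNA from 24 cultures was measured on 1-colour Agilent arrays, with line, treatment and replicate number taken from the labels. The authors deposited, per array, scanner output of Agilent Feature Extraction 10.7.3.1 with the processed signal, a linear intensity from which background had been subtracted, with no normalization between arrays. They also deposited a table of log2 values, whose scale was read from the values, centred by probe (array medians -0.057 to 0.057). Over 19267 probes its differences between arrays correlated at 0.999 with those used here, with a slope of 1.00, and it served as an alternative only.

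Control and outlier spots were left out (111 to 216 spots per array, 0 saturated). Spots of a probe were averaged, divided by the 75th percentile of the array, set to a floor of 5.70% of it (log2 -4.13) and log2 transformed. To set it, the weakest signal called well above background was found on each array and the median taken. The plan named no floor. Tests covered probes that all arrays of some group in the fit showed well above background, and a gene was read from its probe with the highest mean. Of 58201 probes, 31104 were named through the RefSeq table by accession, 10719 by LNCipedia name, and 16378 had no name. *IL31RA* and *LYZ* were not found under these names.

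Comparisons used limma 3.58.1 in R 4.3.3, over the 12 arrays of a line (16101 genes in SNU-449, 16684 in PLC/PRF/5) or all 24 (17902 genes), with adjusted p by Benjamini-Hochberg over all of them. The limits for a call are ones the study used for some gene lists. The study's methods name a two-sample test with a random variance model, which was not run. A plain two-sample test is among the alternatives. The tests were checked on simulated data with independent noise and the same spread of a gene in every group. The simulation had no shared slide effect, so it does not cover the shared deviations or unequal spreads of these arrays. A member not above background in a whole group is given as a bound. The number of arrays limits the precision.

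The replicate number is also the slide. Same-numbered cultures deviated together with r above 0.1 in all 3 pairs for galunisertib added to TGFβ1 (0.114 to 0.266) and TGFβ1 (0.137 to 0.229) in SNU-449, and for TGFβ1 in PLC/PRF/5 (0.163 to 0.296). Elsewhere at least 1 pair was under 0.1. In PLC/PRF/5 r was 0.037 to 0.312 for galunisertib added to TGFβ1 and 0.010 to 0.267 for galunisertib alone. It was -0.042 to 0.094 for galunisertib alone in SNU-449. Between the lines it was 0.047 to 0.183 untreated and 0.089 to 0.343 under TGFβ1.

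Alternatives changed the scaling, background correction, filter, floor, probe summary, source of values, replicate block, test, or left out a replicate. Because the files hold no mean signal, the normexp alternative used median signal and median background with an offset of 50. Named genes were all members, each listed pathway gene called within a line or otherwise the 3 with the largest changes, and the 5 genes most and least like *IL11*. *STAT3*, *CLCF1*, *EBI3*, *CNTF*, *SOCS1*, *MCL1* and the marker genes were named beyond that rule after their values were seen. Some genes the rule would name are not reported here. Members and lists were chosen with earlier results of these data known.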

Additional observations from a re-analysis of the deposited data

Results flagged for a closer look

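Of the members, *IL11* and *LIF* were called for a different response in the 2 lines, beside 6.14% of all genes. All 6 members measured in both lines passed the adjusted limit for that difference, beside 29.1%. Over 15 alternative settings *IL6ST* passed it in 10, *IL6R* in 12 and *IL11RA* in 13. *IL11*, *LIF* and *OSMR* passed it in all 15. The effect of galunisertib added to TGFβ1 on *IL11* differed between the lines by -3.30 ± 0.482 on the log2 scale, SNU-449 minus PLC/PRF/5 (adjusted p = 5.55e-05, limma), with changes of -3.54 and -0.24. Without replicate 3 the difference was -2.91 (adjusted p = 0.0179), and the unadjusted P of 0.0016 no longer met the limit for a call. For *LIF* the log2 difference was -1.49 ± 0.184 (adjusted p = 8.31e-06), with changes of -0.56 and 0.93. It ran from -1.83 to -0.82 over 15 alternative settings, the latter under 2-fold. The fall in SNU-449 was read by 1 of the 2 *LIF* probes.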

How the results depend on the processing

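Over 16 alternative settings, 895 of 1019 member values kept their direction and side of the threshold or moved by less than the spread between replicates, 80 lost the adjusted limit, 14 gained it, 26 turned sign and 4 without a test moved. The number of members called with galunisertib added to TGFβ1 in SNU-449 went from 2 to 1 with median scaling, no scaling, quantile normalization and normexp, and ranged from 1 to 2 without a replicate. In PLC/PRF/5 it went from 0 to 2 with median scaling, to 1 with quantile normalization and to 1 with the authors' values, and from 0 to 1 without a replicate. Galunisertib alone in PLC/PRF/5 went from 1 to 0 with normexp (0 to 1 without a replicate). The difference between the lines of TGFβ1 went from 0 to 1 with normexp, with probes above background on every array and with the mean of all probes (0 to 1 without a replicate). TGFβ1 in SNU-449 ranged from 0 to 1, and the difference between the lines of galunisertib added to TGFβ1 from 1 to 2, without a replicate. The cause was not tested.

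Values that turned sign were small, and of them only *OSMR* between lines under TGFβ1 (0.27, adjusted p = 0.0285) had passed the adjusted limit. With median scaling, galunisertib added to TGFβ1 gave -0.029 for *IL11RA* in SNU-449 and 0.013 for *IL6ST* in PLC/PRF/5, TGFβ1 gave 0.018 for *IL6* in SNU-449, galunisertib gave 0.051 for *IL6R* and 0.094 for *IL6ST* in PLC/PRF/5, and between lines *IL6ST* was -0.17 untreated and *OSMR* -0.17 under TGFβ1. With the percentile over probes above background on all arrays, *IL11RA* was -0.0059 for TGFβ1 in SNU-449 and 0.16 between lines under TGFβ1, the latter 0.078 with quantile normalization. Without scaling, galunisertib added to TGFβ1 in SNU-449 gave -0.047 for *IL11RA* and -0.014 for *OSMR*, TGFβ1 there gave 0.057 for *IL6* and 0.00141 for *IL6ST*, and galunisertib in PLC/PRF/5 gave 0.011 for *IL6R* and 0.054 for *IL6ST*. With normexp, *OSMR* was -0.11 for galunisertib added to TGFβ1 and *IL11RA* -0.11 for TGFβ1 in SNU-449, *IL6R* was 0.024 for galunisertib in PLC/PRF/5 and 0.12 for the difference between lines of TGFβ1. The authors' values gave 0.018 for *IL6ST* with galunisertib in PLC/PRF/5. Without a replicate, TGFβ1 in SNU-449 gave -0.0098 to 0.090 for *IL11RA* and -0.24 to 0.021 for *IL6*, galunisertib in PLC/PRF/5 gave -0.10 to 0.00077 for *IL6R* and -0.10 to 0.10 for *IL6ST*, and *IL11RA* between lines under TGFβ1 was -0.12 to 0.025.

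The replicate block ended 1 call of a member at the adjusted limit, *LIF* with TGFβ1 in SNU-449 (adjusted p = 0.0548), and changed no other. Over all genes, calls with galunisertib added to TGFβ1 in SNU-449 ran from 377 (normexp) to 927 (all probes) against 611. Scaling moved the median of all genes by -0.42 to 0.17 with the median and by -0.18 to 0.25 without scaling. *IL6* in PLC/PRF/5 and *LIFR* were limited by signal over background.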
